A study of Mus musculus with 8 samples.

Results

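The expression of 9 transcription factors that pattern the Müllerian duct and the uterus was examined in mouse uteri with conditional deletion of *Ezh2*. The genes were *Msx1*, *Msx2*, *Dlx5*, *Dlx6*, *Emx2*, *Pax2*, *Pax8*, *Lhx1* and *Hand2*. They were chosen by name for their known roles, with earlier results of these data known, and they are 9 of the 27179 genes counted. Of the 9 genes, 8 passed the filter on low counts, together with 16658 genes in all, and *Lhx1* did not. RNA-seq had been done on whole uteri at postnatal day 10 (PD10), with one library per mouse. The 4 control mice were *Ezh2* f/f without Cre, and the 4 cKO mice were *Ezh2* f/f with *Amhr2*-Cre ("Acre" in the labels), so that both genotypes carried the floxed allele. The mice were on a mixed C57BL/6/129SvEv background. This Cre targets mesenchymal lineages such as stroma and muscle and not the epithelium, and a whole uterus holds all of them.

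The Müllerian duct is the embryonic tube that becomes the oviduct, the uterus and the upper vagina. *Lhx1*, *Pax2* and *Emx2* encode factors without which the duct does not form or does not persist, and *Pax8* is a paired box gene that marks the duct epithelium and its adult derivatives. The homeobox genes *Msx1* and *Msx2* act in the uterine epithelium and stroma, where they prepare the tissue for implantation, and *Dlx5* and *Dlx6* are a linked pair of homeobox genes known from the uterine epithelium and its glands. *Hand2* encodes a basic helix-loop-helix factor of the stroma that responds to progesterone and restrains fibroblast growth factor signals to the epithelium. EZH2 is the enzyme that places the repressive mark H3K27me3, which is found mostly over CpG-rich promoters of developmental genes of this kind.

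Because H3K27me3 favours CpG-rich promoters, the promoter letters of the 3 factors with the smallest p-values and of the factor with almost no reads, *Lhx1*, are shown. They are the 250 bases before the start of transcription, from RefSeq on GRCm38.p6, read 5′ to 3′ on the strand of the gene, and capitals mark every CpG.
*Msx1* (chr5:37824586-37824835, minus strand): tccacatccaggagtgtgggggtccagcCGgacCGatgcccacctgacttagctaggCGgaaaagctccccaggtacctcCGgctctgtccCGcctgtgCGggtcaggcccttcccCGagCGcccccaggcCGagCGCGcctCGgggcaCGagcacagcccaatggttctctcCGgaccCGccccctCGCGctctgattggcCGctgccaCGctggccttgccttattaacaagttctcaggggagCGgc
*Msx2* (chr13:53472781-53473030, minus strand): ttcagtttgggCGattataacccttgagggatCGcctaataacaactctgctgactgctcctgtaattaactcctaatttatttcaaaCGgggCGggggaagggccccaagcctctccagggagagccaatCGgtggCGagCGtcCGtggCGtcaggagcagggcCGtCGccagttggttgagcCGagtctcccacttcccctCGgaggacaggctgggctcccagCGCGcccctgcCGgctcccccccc
*Hand2* (chr8:57320733-57320982, plus strand): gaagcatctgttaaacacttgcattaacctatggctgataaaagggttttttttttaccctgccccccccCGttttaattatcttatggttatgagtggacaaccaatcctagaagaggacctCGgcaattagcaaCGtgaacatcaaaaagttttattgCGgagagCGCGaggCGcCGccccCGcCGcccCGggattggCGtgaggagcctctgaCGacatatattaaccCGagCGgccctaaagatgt
*Lhx1* (chr11:84525535-84525784, minus strand): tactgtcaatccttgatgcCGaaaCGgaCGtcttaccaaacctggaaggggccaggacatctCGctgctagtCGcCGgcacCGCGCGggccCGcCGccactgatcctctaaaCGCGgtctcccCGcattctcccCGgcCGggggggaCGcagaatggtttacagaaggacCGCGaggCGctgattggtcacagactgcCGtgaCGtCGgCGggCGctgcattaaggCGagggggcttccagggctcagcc
Among 32851 promoter windows of the same length the median was 6 CpGs and the upper quartile was 16. The *Lhx1* window held 26, more than in 90.4% of all windows, and belonged to the one member with no more than 1 read in any library. *Emx2*, the member with the highest level per length, had 24 CpGs (more than 88.0% of windows). The window of *Msx1* held 20, that of *Msx2* 16, that of *Hand2* 15 and that of *Pax8* 6. *Pax2* has 3 listed starts, with 5, 20 and 25 CpGs. A promoter was listed for 7 of the 9 members, and for *Dlx5* and *Dlx6* none was printed. Both the member with fewest reads and the highest one were thus CpG-rich, and no H3K27me3 was measured in these libraries.

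Between 25287141 and 36685807 reads per library were counted on genes. Levels are given as CPM, the counts of a gene scaled to the size of its library, after TMM scaling between libraries, and differences as log2FC, the log2 of the fold change of cKO against control, with its standard error (SE). In these libraries 3 reads, the limit that a count of 0 allows, equal 0.0824 to 0.117 CPM. *Ezh2* lay between 35.4 and 54.7 CPM in control libraries and between 30.4 and 40.7 CPM in cKO libraries, with a log2FC of -0.29 (SE 0.13, adjusted p = 0.247 in edgeR's quasi-likelihood test) that was -0.18 without control replicate 3 and -0.39 without control replicate 4, so the genotypes overlapped for the whole gene in the whole organ. Markers of fat stood out in 3 of the 4 cKO uteri. The summed level of 7 adipocyte genes was 2.02 to 3.48 CPM in control libraries and 77.2, 178.0, 79.6 and 4.06 CPM in cKO replicates 1 to 4, the last carried mostly by *Adrb3* (2.10 CPM) and *Fabp4* (1.61 CPM). Uterine markers were abundant, with summed epithelial markers at 1107 to 1539 CPM and summed stromal markers at 8077 to 12546 CPM over all libraries. Kidney and mesonephros markers, which would carry *Pax2*, *Pax8* and *Lhx1* of their own, summed to at most 0.350 CPM in any library.

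By edgeR's quasi-likelihood test, 0 of the 8 patterning factors passed an adjusted p-value of 0.05, which 5.34% of all genes tested did (2.62% higher and 2.71% lower in cKO uteri). None was DE (fold change over 2 with an adjusted p-value under 0.05), where 1.3% of all genes were. At an unadjusted p-value under 0.05 there were 3, *Hand2*, *Msx2* and *Msx1*, against 21.2% of all genes. The same count was 3 with DESeq2 and 3 with limma-voom, and at an adjusted p-value under 0.05 it was 1 (*Msx2*) with DESeq2 and 0 with limma-voom. For no member were the 4 cKO libraries all on one side of the 4 control libraries, as they were for 12.3% of all genes. The log2FC was above 0 for 7 members and below 0 for *Hand2*, with a median of 0.09 over the members and 0.00044 over all genes tested. The median size of the log2FC was 0.116 for the members and 0.119 for all genes. The 95% intervals of all 8 members lay within a 2-fold change in either direction, and those of 7 lay within 1.5-fold, *Msx2* being the exception. In a whole uterus, fewer cells of a type and less RNA per cell cannot be told apart.

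**Figure D1:**
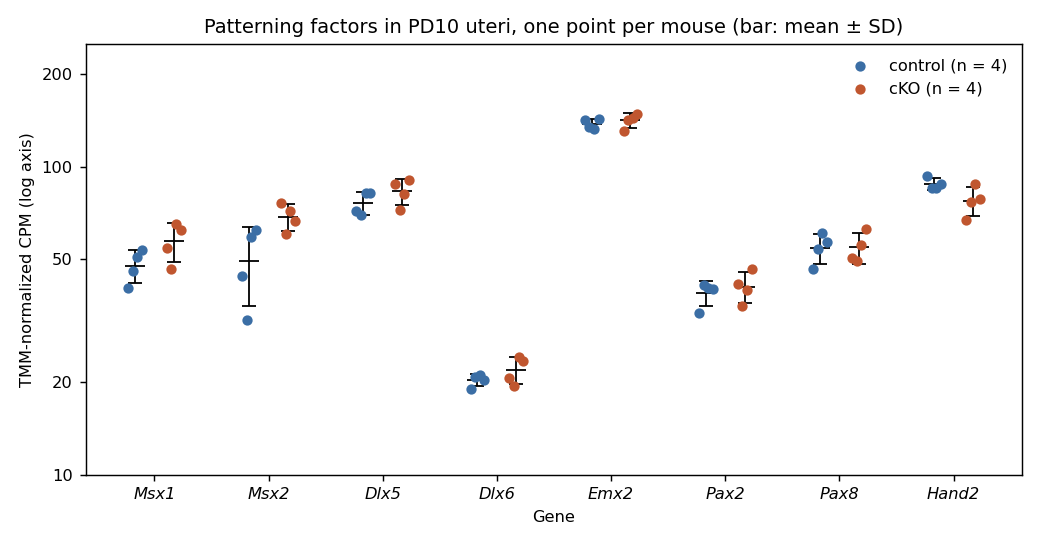
TMM-normalized CPM (log axis) of the 8 patterning factors tested, with one point per mouse, the mean as a long bar and 1 SD as short bars (n = 4 control and 4 cKO). The genotypes overlap in each gene, and the widest spread is that of *Msx2* in control uteri, from 31.8 to 62.5 CPM.

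*Msx1* and *Msx2*, the homeobox pair of uterine receptivity, had the highest fold changes of the group. *Msx1* (Entrez 17701, chromosome 5 of GRCm38, 37820491 to 37824585, minus strand) was at 40.3, 45.8, 50.9 and 53.5 CPM in control replicates 1 to 4 and at 54.6, 46.7, 65.2 and 62.5 CPM in cKO replicates 1 to 4. All but cKO replicate 2 were above every control library. The means were 47.6 ± 5.82 and 57.2 ± 8.37 CPM (SD, n = 4 each), with a log2FC of 0.27 (SE 0.11, 95% interval 0.02 to 0.51). Its p-value in edgeR's quasi-likelihood test was 0.0372 before and 0.202 after adjustment over all genes tested, so the difference was not called.

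*Msx2* (Entrez 17702, chromosome 13, 53466881 to 53472780, minus strand) was at 44.2, 31.8, 59.0 and 62.5 CPM in control and at 76.2, 60.5, 72.0 and 66.6 CPM in cKO replicates 1 to 4. Again 3 of the 4 cKO libraries lay above every control library and cKO replicate 2 did not, while control replicate 2 was the lowest of all. The means were 49.4 ± 14.2 and 68.8 ± 6.78 CPM (SD, n = 4 each), with a log2FC of 0.48 (SE 0.19, 95% interval 0.04 to 0.91, adjusted p = 0.202 in edgeR). With DESeq2 the fold change was the same and the adjusted p-value was 0.0479. Each library was left out in turn, and the edgeR log2FC of *Msx2* then ran from 0.32 to 0.61 and its adjusted p-value from 0.124 to 0.388. The control SD was 28.7% of the mean, the widest spread of the members tested. Control replicate 2 also had the lowest sum of mesothelial markers, 45.8 CPM, against 79.4 to 131.6 CPM in the other 7 libraries. It stood apart in other marker sums too, lowest for urothelium (8.12 CPM against 15.5 to 23.9 CPM) and epithelium (1107 CPM) and highest for skeletal muscle (74.5 CPM). Among cKO libraries, replicate 3 had the lowest mesothelial sum, 79.4 CPM, but not the lowest *Msx2* (72.0 CPM). Without control replicate 2 the *Msx2* log2FC was 0.32 (adjusted p = 0.147 in edgeR), the lowest value with a library left out. The part of the mesothelium itself was not tested. Defining mesothelial markers were detected in every library, and 0 of the 3 were called between genotypes in edgeR.

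Over the 8 libraries the pair moved together, with a Pearson r of 0.708 (permutation p = 0.0475, adjusted p = 0.0713 over 3 pairs) and a Spearman rho of 0.881 (permutation p = 0.00724, adjusted p = 0.0217). Without the 2 libraries farthest from the median of *Msx1* the r was 0.645, and within genotypes it was 0.513. *Msx1os* (Entrez 93895, 37820564 to 37822751), an antisense transcript inside the span of *Msx1*, was at 7.28 to 10.2 CPM in control libraries and at 16.3, 19.7, 7.58 and 7.60 CPM in cKO replicates 1 to 4. The 2 cKO libraries with more *Msx1os* were not the 2 with the most *Msx1*. Its log2FC was 0.52 (SE 0.32, adjusted p = 0.393 in edgeR), and 0.23 without cKO replicate 2. The libraries were stranded, but whether the counting used the strand is not given in the sources used here, so reads of *Msx1* and *Msx1os* cannot be told apart with certainty. The third gene of the family, *Msx3*, had means of 0.23 ± 0.17 and 0.13 ± 0.085 CPM (SD, n = 4 each) and was not tested.

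The linked pair *Dlx5* and *Dlx6* lies on chromosome 6 with 9831 bases between the genes, *Dlx6* (Entrez 13396) at 6863334 to 6867970 on the plus strand and *Dlx5* (Entrez 13395) at 6877801 to 6882068 on the minus strand. *Dlx5* was at 71.8, 69.6, 82.2 and 81.9 CPM in control and at 87.8, 72.4, 81.5 and 90.7 CPM in cKO replicates 1 to 4. Only cKO replicates 1 and 4 were above every control library. The log2FC was 0.12 (SE 0.08, 95% interval -0.05 to 0.29, adjusted p = 0.413 in edgeR), and 0.08 to 0.18 with a library left out.

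*Dlx6* was at 19.1, 20.8, 21.0 and 20.3 CPM in control and at 20.7, 19.4, 24.1 and 23.4 CPM in cKO replicates 1 to 4. Here cKO replicates 3 and 4 were the 2 above every control library. The log2FC was 0.11 (SE 0.08, 95% interval -0.07 to 0.29, adjusted p = 0.480 in edgeR), and 0.06 to 0.17 with a library left out. Per kilobase of exon, *Dlx5* was 3.51 to 4.46 times the level of *Dlx6* in each library. The r of the pair over the 8 libraries was 0.596 (permutation p = 0.124, rho 0.429 with permutation p = 0.299, adjusted p = 0.299), and without the 2 libraries farthest from the median of *Dlx5* it was 0.546. The noncoding gene *Dlx6os1* (Entrez 320038, 6820543 to 6871627) spans *Dlx6*. It was at 48.7, 39.3, 57.9 and 61.0 CPM in control and 65.7, 58.1, 57.8 and 74.9 CPM in cKO replicates 1 to 4, overlapping between genotypes, with a log2FC of 0.31 (SE 0.13, adjusted p = 0.218 in edgeR) that was 0.20 without control replicate 2. *Dlx6os2*, a second noncoding gene inside *Dlx6*, had 1 to 6 reads per library.

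*Emx2* (Entrez 13797, chromosome 19, 59458690 to 59465357, plus strand), a homeobox gene without which the urogenital tract does not form, was the most abundant member. It was at 141.2, 134.0, 132.5 and 143.0 CPM in control and at 130.7, 141.3, 144.0 and 148.7 CPM in cKO replicates 1 to 4. The cKO range enclosed the control range. The log2FC was 0.04 (SE 0.06, 95% interval -0.09 to 0.16, adjusted p = 0.752 in edgeR), the narrowest interval of the 8 members tested, and 0.01 to 0.07 with a library left out. *Emx2os* (Entrez 329078), which lies 55 bases away, was at 34.2 ± 1.24 (control) and 34.4 ± 1.84 CPM (cKO; SD, n = 4 each), with a log2FC of 0.01 (SE 0.06, adjusted p = 0.946 in edgeR).

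The paired box genes *Pax2* and *Pax8* were both expressed in every library. *Pax2* (Entrez 18504, chromosome 19, 44746601 to 44838269, plus strand) was at 33.5, 41.2, 40.4 and 40.2 CPM in control and at 41.7, 35.2, 39.7 and 46.4 CPM in cKO replicates 1 to 4. The control libraries other than replicate 1 lay close together, and the cKO libraries fell on both sides of them. The log2FC was 0.07 (SE 0.09, 95% interval -0.13 to 0.27, adjusted p = 0.698 in edgeR), and 0.00 to 0.14 with a library left out. A noncoding gene inside the span of *Pax2*, *1700039E22Rik*, had 2 to 20 reads per library and a log2FC of 1.07 (SE 0.66, adjusted p = 0.376 in edgeR) that was 0.52 without cKO replicate 2.

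*Pax8* (Entrez 18510, chromosome 2, 24420551 to 24475599, minus strand) was at 46.5, 53.9, 60.8 and 57.0 CPM in control and at 50.6, 49.3, 55.9 and 62.9 CPM in cKO replicates 1 to 4. The libraries of the genotypes interleaved, with means of 54.5 ± 6.05 and 54.7 ± 6.18 CPM (SD, n = 4 each). Its log2FC of 0.0036 (SE 0.09, 95% interval -0.20 to 0.21, adjusted p = 0.988 in edgeR) had no stable sign, being -0.07 without control replicate 1 and without cKO replicate 4. *Pax2* and *Pax8* had an r of 0.806 over the 8 libraries (permutation p = 0.0176, adjusted p = 0.0528, rho 0.619 with permutation p = 0.115, adjusted p = 0.173) and 0.828 within genotypes. Without the 2 libraries farthest from the median of *Pax2* the r was 0.433, so its size depended on those libraries. Removing extremes narrows the range of *Pax2* and by itself tends to lower r, so whether the relation rests on them was not settled.

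*Lhx1* (Entrez 16869, chromosome 11, 84517975 to 84525534, minus strand), the LIM homeobox gene that starts duct formation, had 1 read over all 8 libraries, in cKO replicate 2. The other 7 libraries had 0, which allows up to 3 reads in each, or at most 0.117 CPM. No *Lhx1* above that limit was seen in either genotype, and a difference below it was not detectable at this depth. Its antisense neighbour *Lhx1os*, 126 bases away, had 0 or 1 read per library. *Aatf* (Entrez 56321), the nearest expressed gene at 4391 bases from *Lhx1*, was at 26.4 to 29.8 CPM in control and 23.8 to 25.7 CPM in cKO libraries without overlap, with a log2FC of -0.16 (SE 0.07, adjusted p = 0.194 in edgeR).

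*Hand2* (Entrez 15111, chromosome 8, 57320983 to 57324517, plus strand), the stromal factor, was the only member with a fold change below 0 and had the smallest p-value of the 8 in edgeR, while *Msx2* had it in DESeq2, in limma-voom and in the permutation test. It was at 93.3, 85.5, 85.1 and 87.7 CPM in control and at 67.3, 76.7, 88.1 and 78.2 CPM in cKO replicates 1 to 4. The cKO libraries other than replicate 3 were below every control library, and cKO replicate 3 was above 3 of the 4. The means were 87.9 ± 3.81 and 77.6 ± 8.52 CPM (SD, n = 4 each), with a log2FC of -0.18 (SE 0.07, 95% interval -0.34 to -0.02) that was -0.12 without cKO replicate 1. Its p-value in edgeR was 0.0323 before and 0.190 after adjustment, and the exact two-sided permutation test gave p = 0.114 (adjusted p = 0.305 over 8 members). That test reached 0.0571 for *Msx2* and 0.114 for *Msx1*, both with adjusted p = 0.305, where 4 mice against 4 cannot go below 0.029.

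**Figure D2:**
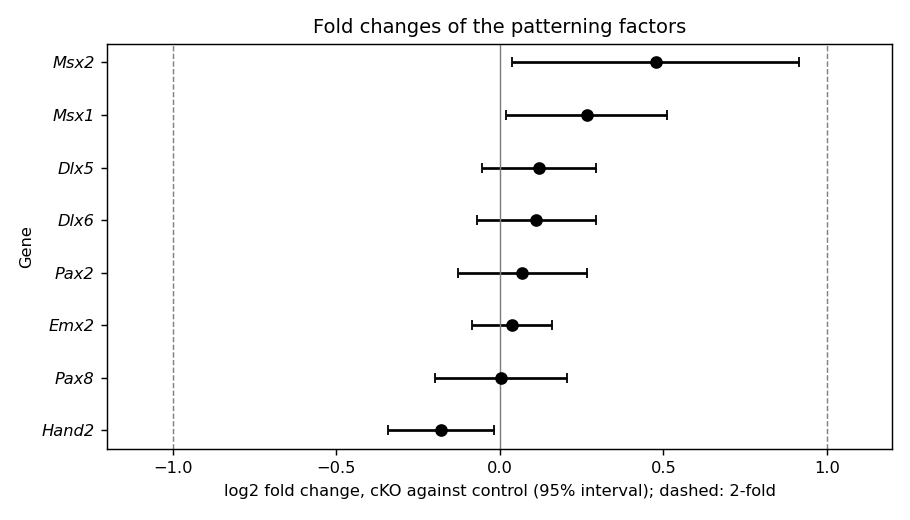
Log2 fold change of cKO against control (points) with its 95% interval (bars) for the 8 patterning factors tested, from edgeR, with dashed lines at a 2-fold change. The intervals of *Msx2*, *Msx1* and *Hand2* leave out 0 before adjustment for 16658 genes, and none reaches a 2-fold change.

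The uterus is a mixture, so each member was also set against the markers of the epithelium and of the stroma. The summed level of 6 epithelial markers was 1185, 1107, 1332 and 1348 CPM in control and 1367, 1265, 1450 and 1539 CPM in cKO replicates 1 to 4, and 0 of the 6 markers were called. The summed level of 6 stromal markers was 9707, 10578, 8077 and 9320 CPM in control and 12546, 12545, 12435 and 9780 CPM in cKO replicates 1 to 4, and 1 of the 6, the collagen gene *Col3a1*, was called higher. Both sums overlapped between genotypes, with the 3 cKO libraries richest in fat markers highest in stromal markers. The part of either compartment in the results of the members was not tested beyond the ratios that follow.

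Divided by the stromal sum, *Hand2* was lower by 0.51 on the log2 scale in cKO uteri, and divided by the epithelial sum it was lower by 0.36, with no overlap between genotypes in either ratio (exact two-sided permutation test, p = 0.0286 for both, the smallest that 4 against 4 allow). After adjustment over the 16 ratios formed (8 members, 2 compartments), both had p = 0.229 in the exact permutation test, so neither passed. Without *Col3a1*, the most abundant stromal marker, the difference of *Hand2* to the stromal sum was -0.45 (exact permutation p = 0.0857). *Msx1* differed by 0.08 against the epithelial sum (exact permutation p = 0.400) and by -0.07 against the stromal sum (exact permutation p = 0.771). *Msx2* differed by 0.34 against the epithelial sum (exact permutation p = 0.0857, adjusted p = 0.274) and by 0.20 against the stromal sum (exact permutation p = 0.629, adjusted p = 0.670). *Pax8*, an epithelial gene, differed by -0.17 against the epithelial sum (exact permutation p = 0.0571, adjusted p = 0.274) and by -0.32 against the stromal sum. Against the stromal sum the other members were lower too, *Emx2* by 0.29, *Pax2* by 0.26, *Dlx6* by 0.22 and *Dlx5* by 0.21 on the log2 scale (exact permutation p from 0.0857 to 0.286), and none passed. Without control replicate 2 the differences of *Msx2* were 0.20 against the epithelial and -0.06 against the stromal sum.

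**Figure D3:**
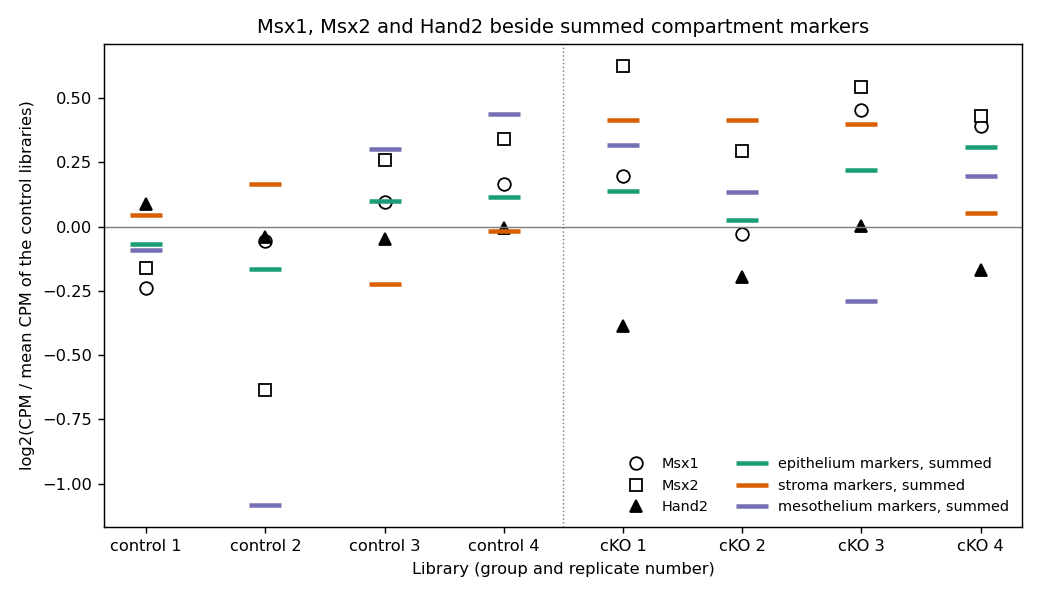
Level of *Msx1*, *Msx2* and *Hand2* (symbols) and of summed epithelial, stromal and mesothelial markers (bars) in each library, as log2 of CPM over the mean of the 4 control libraries. *Msx2*, the mesothelial sum and the epithelial sum are all lowest in control replicate 2. *Hand2* lies below the stromal sum, which is mostly collagen RNA, in all 4 cKO libraries.

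Ranked per kilobase of annotated exon, control uteri had most *Emx2* (45.9 ± 1.73 CPM per kb, SD, n = 4), then *Hand2* (37.4 ± 1.62), *Dlx5* (33.8 ± 2.93), *Msx1* (15.4 ± 1.88), *Msx2* (15.1 ± 4.32), *Pax8* (9.0 ± 1.0), *Dlx6* (8.55 ± 0.371) and *Pax2* (7.18 ± 0.659), with *Lhx1* at 0. Neighbours in that order whose libraries overlapped were *Hand2* with *Dlx5*, *Msx1* with *Msx2*, *Msx2* with *Pax8*, and *Pax8* with *Dlx6*. In cKO uteri *Emx2* was again first (47.0 ± 2.54 CPM per kb), *Dlx5* (36.7 ± 3.57) stood before *Hand2* (33.0 ± 3.62), and *Msx2* (21.0 ± 2.07) before *Msx1* (18.5 ± 2.70). The libraries of both of these exchanged pairs overlapped in cKO uteri as well. *Dlx6* (9.22 ± 0.932) and *Pax8* (9.02 ± 1.02) also exchanged places with overlapping libraries, and *Pax2* was at 7.53 ± 0.857.

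Most relatives of the members in the same gene families had few reads or none. Of 21 paralogues, 4 passed the filter, 6 had no read in any library and 15 had a mean below 0.1 CPM. Of the 4, 1 was called higher, where 2.62% of all genes tested were. *Lhx8*, a LIM homeobox gene of oocytes and of the developing head, rose from 0.309 ± 0.152 to 1.44 ± 0.261 CPM (SD, n = 4 each), with a log2FC of 2.25 (SE 0.34, adjusted p = 0.00231 in edgeR). The other 3 tested were *Lhx6* (4.15 ± 0.599 and 4.74 ± 0.532 CPM), *Lhx2* and *Dlx3*, whose adjusted p-values in edgeR ran from 0.267 to 0.911.

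Of the genes of duct formation other than the members, 12 of a list of 13 were tested. *Wnt5a* was lower in cKO uteri, 0 were higher and 11 did not pass the test, where 5.34% of all genes tested did, and the median log2FC was 0.0028. *Wnt5a*, a mesenchymal ligand needed for the outgrowth of the posterior tract, fell from 382.6 ± 21.4 to 284.9 ± 34.6 CPM (log2FC -0.43, SE 0.08, adjusted p = 0.0104 in edgeR). *Wnt7a*, an epithelial ligand that maintains uterine identity, was at 140.0 ± 13.2 and 140.9 ± 11.4 CPM, and *Wt1* at 150.3 ± 6.93 and 149.7 ± 16.2 CPM (SD, n = 4 each). *Wnt9b*, the ligand of the neighbouring duct that draws out the Müllerian duct, had 38 reads in all. It was at 0.252, 0.193, 0.321 and 0.302 CPM in control and at 0, 0.10, 0 and 0.0701 CPM in cKO replicates 1 to 4, under the filter. No cKO library held more than 3 reads of it. In a fit without the filter its log2FC was -2.54 (SE 0.70, adjusted p = 0.0436 in edgeR), which rests on these few reads. Leaving out a library let *Wnt9b* past the filter in 5 fits, through its control values alone. Entry through the higher group favours a difference, so those fits cannot decide whether *Wnt9b* was lower. Even so, it was not called without cKO replicate 1 or cKO replicate 3.

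The anti-Müllerian hormone pathway removes the duct in males, and its receptor gene *Amhr2* drives the Cre of the cKO mice. *Amhr2* fell from 6.15 ± 0.749 to 3.69 ± 0.610 CPM (SD, n = 4 each), with a log2FC of -0.73 (SE 0.15, adjusted p = 0.0148 in edgeR). The allele that carries Cre is present in cKO mice alone, so that allele and the deletion of *Ezh2* cannot be told apart for this gene. The other 6 genes tested of 8, the type I receptors *Acvr1* and *Bmpr1a*, the signal carriers *Smad1*, *Smad5* and *Smad9* and the target *Sp7*, did not pass the test. The list thus had 1 call, lower, where 2.71% of all genes were called lower, and its median log2FC was -0.05.

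Bone morphogenetic proteins (BMPs) are well known inducers of *Msx1*, *Msx2*, *Dlx5* and *Hand2*, and here several of their genes were called while those factors were not. Of 18 genes tested, 2 were higher and 3 lower, beside 2.62% and 2.71% of all genes tested, with a median log2FC of -0.05. The ligand gene *Bmp7* fell from 38.4 ± 1.52 to 21.3 ± 1.28 CPM (SD, n = 4 each), with a log2FC of -0.85 (SE 0.07, adjusted p = 2.71e-05 in edgeR), and *Bmp4* from 22.6 to 16.4 CPM (log2FC -0.46, SE 0.09, adjusted p = 0.00968). The antagonists went in opposite directions. *Nog*, which encodes noggin, fell from 7.71 to 2.64 CPM (log2FC -1.54, SE 0.16, adjusted p = 0.000131), and *Grem1*, which encodes gremlin, rose from 1.02 ± 0.308 to 5.03 ± 0.947 CPM (log2FC 2.29, SE 0.23, adjusted p = 0.000118). Among the response genes *Id1* to *Id4*, only *Id4* passed (48.7 to 67.5 CPM, log2FC 0.47, SE 0.08, adjusted p = 0.00436), and *Id1* was at 76.5 and 93.1 CPM with an adjusted p-value of 0.0741. *Smad6* and *Smad7*, the inhibitory targets of the pathway, had adjusted p-values of 0.942 and 0.477.

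Around *Hand2*, 15 genes of its regulators, partners and targets were tested, and 1 was higher and 2 lower (5.34% of all genes were called), with a median log2FC of -0.02. The list was drawn up with several genes of the basic helix-loop-helix class to which *Hand2* belongs. The called genes were all of that class and went in both directions, and the class itself was not tested. *Tcf4*, one of the E proteins with which such factors pair, fell from 456.6 to 335.8 CPM (log2FC -0.44, SE 0.07, adjusted p = 0.00312 in edgeR), *Twist2* fell from 26.8 to 19.0 CPM (-0.49, SE 0.10, adjusted p = 0.0149), and *Twist1* rose from 15.3 to 19.8 CPM (0.37, SE 0.07, adjusted p = 0.0121). The other E protein genes *Tcf3* and *Tcf12* did not pass. *Pgr*, the progesterone receptor gene upstream of *Hand2*, was at 583.1 ± 31.9 and 469.0 ± 100.6 CPM (SD, n = 4 each), with a log2FC of -0.31 (adjusted p = 0.176 in edgeR). The growth factor genes that HAND2 restrains, *Fgf1*, *Fgf2*, *Fgf9* and *Fgf18*, had adjusted p-values from 0.589 to 0.783. By its levels over the 8 libraries, *Hand2* was most like *Diaph2* (Pearson r 0.974), *Abi2* (0.971) and *Prpf18* (0.971) among 14290 genes with a mean of at least 1 CPM, which share the libraries with it.

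The gland list had most calls. It was drawn up with earlier results of these data known, and the paper reports lower *Foxa2* and *Cxcl15* transcripts in cKO uteri by qRT-PCR. Its count is therefore a description and no independent support for a change in gland genes. Of 8 genes tested of 10, 1 was higher and 5 were lower (2.62% and 2.71% of all genes), with a median log2FC of -0.44. *Foxa2*, the transcription factor of the glands, fell from 2.04 to 0.272 CPM (log2FC -2.91, SE 0.32, adjusted p = 0.000241 in edgeR), and the gland product *Cxcl15* from 4.24 to 0.292 CPM (-3.83, SE 0.42). *Sox9* fell from 7.79 to 4.79 CPM, the WNT targets *Axin2* from 142.1 to 112.5 CPM and *Lef1* from 20.6 to 14.1 CPM, and *Sox17* rose from 155.0 to 197.0 CPM.

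**Figure D4:**
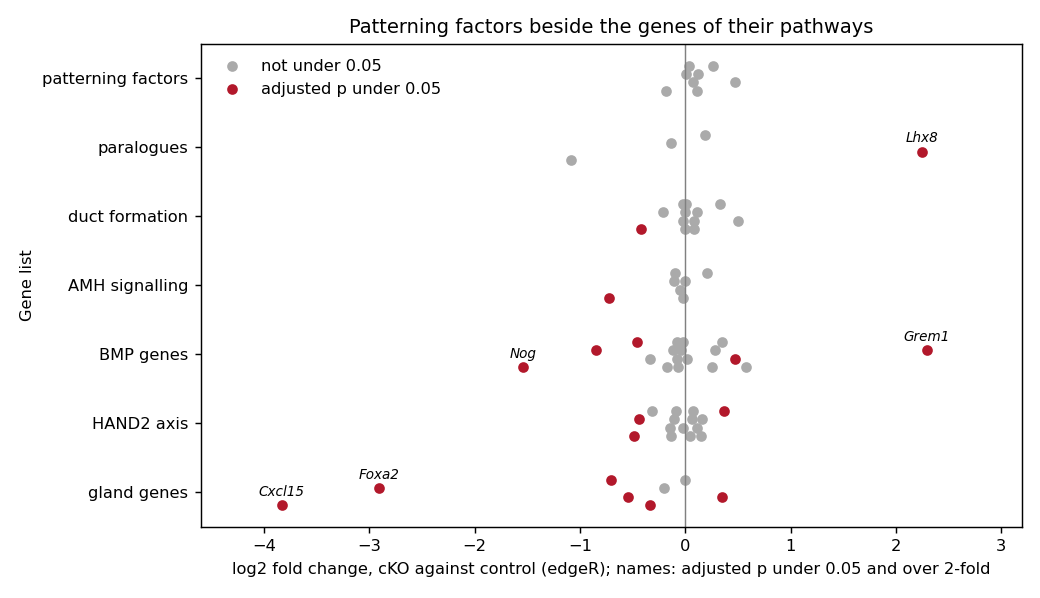
Log2 fold change (cKO against control, edgeR) of each gene tested, in rows for the 8 patterning factors, their paralogues and 5 lists of pathway genes. Red points have an adjusted p-value under 0.05 (named where the change is also over 2-fold), and there are 17 of them in the lists and 0 among the patterning factors. The lists and the patterning factors were chosen with earlier results of these data known, so the counts are a description.

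Several of the 17 calls in these lists depended on single libraries: *Amhr2* (adjusted p-value up to 0.0611 in edgeR) and *Twist2* (0.0589) were not called without control replicate 1 or without cKO replicate 1, and *Twist1* (0.0555) was not without control replicate 1. *Sox17* (up to 0.0709) was not called on removal of control replicate 1, cKO replicate 2 or cKO replicate 3, and *Axin2* (up to 0.0770) on removal of any library other than control replicate 2, cKO replicate 3 and cKO replicate 4. With a score of the adipocyte markers as a covariate, 4 of the 17 were still called, *Bmp7*, *Nog*, *Grem1* and *Cxcl15*, and with cKO replicate 4 alone against the 4 controls, its spread assumed to equal theirs, 3 were, the same without *Cxcl15*. In those 2 fits 59 and 35 genes were called in all. The folds of the 13 genes that lost their call to the covariate were 0.649 to 1.41 times the reported log2FC, at least as large in 6 of them, and their SEs were 1.43 to 1.63 times as large. With cKO replicate 4 alone, the 14 genes that lost it had 0.671 to 1.42 times the log2FC and 1.2 to 1.77 times the SE. For the members the same 2 fits gave log2FCs of 0.43 and 0.40 for *Msx1*, 0.52 and 0.44 for *Msx2* and -0.15 and -0.16 for *Hand2*. The values of the other 5 were all higher than in the fit without the covariate: 0.28 and 0.25 for *Dlx5*, 0.22 and 0.21 for *Dlx6*, 0.12 in both for *Emx2*, 0.25 and 0.26 for *Pax2* and 0.19 and 0.21 for *Pax8*. No member was called in either fit in edgeR.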

How the data were processed

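RNA-seq libraries (TruSeq stranded mRNA) of 4 control and 4 *Ezh2 Amhr2*-Cre cKO uteri at PD10 were analysed. The authors trimmed reads with Trimmomatic, aligned them to GRCm38 with HISAT2, counted them per Entrez gene with featureCounts and deposited raw counts for each library. Versions, the annotation release, the strand setting and the rule for reads of several genes are not given in the sources used here. The authors also deposited edgeR's normalized values, not used here, and a comparison table (log2 fold changes, F scores and p-values), of which only the gene identifiers (not a measurement) and symbols were read.

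The counts were tested in R 4.3.3 with edgeR 4.0.16 (glmQLFit and glmQLFTest, robust = TRUE, TMM, CPM over 0.2 in at least 4 libraries, prior count 0.125 for fold changes, Benjamini-Hochberg adjustment over all 16658 genes), following the study's methods, after the script was tested on simulated counts. Standard errors are the size of the fold change over the square root of F, and intervals are 95%. Exact permutation tests (scipy 1.17.1) used log2(CPM + 0.1). DESeq2 1.42.0, limma-voom (limma 3.58.1), other scalings and filters, robust = FALSE, a prior count of 2, a pseudocount of 0.5, a replicate block, a fat score covariate, cKO replicate 4 alone, marker lists without their top gene and leaving out each library were the alternatives. Leaving out a library lowered the filter to 3 libraries.

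Coordinates and promoters came from RefSeq (GRCm38.p6) and exon lengths from GENCODE M21 (GRCm38), which may differ from the annotation of the counts. Symbols were known for 25440 of 27179 genes. Besides all members, the text names genes within 10 kb of them, *Ezh2*, genes called in each pathway list, and the 3 genes most like the member with the smallest p-value. Others (*Wnt9b*, *Msx3*, *Col3a1* and uncalled list genes) were named after their values were seen. Of the gene lists, 1 gene is not reported here. The members and lists were chosen with earlier results of these data known. Between 25287141 and 36685807 counts per library set the precision, and limits from 0 counts cover counting error only. Libraries are separate mice, no pair of them was alike within sampling noise (chi-square per gene 7.49 or more), and the labels give no batch. Of the marker lists, those for smooth muscle, endothelium, oviduct, ovary, stratified epithelium, urothelium, sympathetic neurons and skeletal muscle overlapped between genotypes in summed CPM. In them, 2 of 4 skeletal muscle genes tested were called higher, where 2.62% of all genes tested were, and 0 genes were called in the other 7. Of those 2, 1 passed the filter only through its cKO libraries (0.370 to 1.91 CPM, against 0 to 0.143 CPM in control).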

Additional observations from a re-analysis of the deposited data

Results flagged for a closer look

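The level of *Pax2* in control uteri was picked out because 1 library stood apart from the other 3. Control replicate 1 was at 33.5 CPM and the others were at 40.2 to 41.2 CPM, so the gap took up 0.864 of the range of the group (Dixon's ratio). Of 16 groups of 4 libraries examined, this was the 1 past the 95% limit, and chance alone gives about 1 in 20. Without control replicate 1 the log2 fold change of *Pax2* was 0.00, against 0.07 with it. Control replicate 1 was also the lowest control library for *Pax8* (46.5 CPM), *Msx1* and *Dlx6*.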

How the results depend on the processing

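The number of patterning factors past an adjusted p-value of 0.05 was 0 under each alternative except 2. It was 1 with DESeq2 (*Msx2*, 0.0479) and 1 with the replicate block (*Msx1*, log2 fold change 0.26, adjusted p-value 0.0490), and the number of DE members was 0 throughout. The cause was not tested. The replicate numbers were not found to pair the mice, since the correlations of same-numbered libraries were 0.0236, 0.1127, -0.0035 and 0.1937 and only the pair of replicates 4 correlated best with its own number. *Dlx6os1* was also called with the block (0.32, adjusted p-value 0.0374). The block raised the calls over all genes from 889 to 1240, and it gave DE calls for no member. The calls over all genes were 1510 with DESeq2 and 409 to 1812 with a library left out. Pathway genes called went from 17 to 4 with the fat score covariate and to 3 with cKO replicate 4 alone, and to 12 to 20 with a library left out; in the first 2 the folds of the lost genes were 0.649 to 1.42 times those reported and their SEs rose. The sign of *Pax8* turned without the filter (-0.0011) and lay between -0.0688 and 0.0585 with a library left out. *Emx2os* lay between -0.0239 and 0.0342 there. *Msx1os* (-0.32 and -0.22) turned with the fat score and with cKO replicate 4 alone, and *1700039E22Rik* (-0.54) with the fat score. With a library left out, *Msx1* ran from 0.19 to 0.35 and *Hand2* from -0.25 to -0.12. The permutation tests and the ratios to compartment markers gave 0 calls under each alternative, which says little about stability, since after adjustment, or with a library left out, a single member could not pass at this size. With 4 mice a genotype, these limits do not show that a member was alike in both genotypes, and *Lhx1* could not be assessed below 3 reads.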
